A study of Mus musculus with 3 samples.

Results

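The 10 genes described here code for ligands, receptors, signal transducers and an antagonist of transforming growth factor beta (TGF-beta) and activin signalling. They were taken from a list by name (Tgfb1, Tgfb2, Tgfb3, Inhba, Tgfbr1, Tgfbr2, Tgfbr3, Smad2, Smad3 and Fst), and the rule uses no measured value. The list and the rule were, however, chosen with earlier results of these data known. All 10 were found among the 22706 genes of the files, and all 10 belong to the 11463 genes that reached 1 FPKM in at least 1 library and were compared. FPKM is a fragment count scaled to transcript length and library size, so levels of different genes can be set side by side. The cells were C2C12, a mouse line of mesenchymal precursors and myoblasts, and polyadenylated RNA was sequenced in 3 libraries, 1 for each group. The mock library came from untreated control cells with a mock transfection, kept in growth medium (GM, DMEM plus 20% FBS). The shKSRP-labelled library came from untreated cells in that medium carrying a short hairpin against KSRP, a protein that binds AU-rich elements of mRNAs and promotes their decay. The BMP2 library came from mock-transfected cells whose title gives differentiation medium (DM, 2% horse serum) together with bone morphogenetic protein 2 (BMP2, 100 to 300 ng/ml in the protocol), so medium and BMP2 cannot be told apart there. Its description adds 1d, and the time of treatment is otherwise not given in the sources used here. Whether the hairpin cells were a clone or a pool is not stated there either.

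TGF-beta ligands are secreted in a latent form, are released at the cell surface or in the matrix, and bind the type II receptor (Tgfbr2), which then activates the type I receptor (Tgfbr1). That receptor phosphorylates SMAD2 and SMAD3, which join SMAD4 and enter the nucleus. Activin A, a dimer of the Inhba product, uses other receptors but the same SMAD2 and SMAD3, and follistatin (Fst) captures activin and myostatin outside the cell. In myoblasts this branch is known for restraining muscle differentiation, and in bone for acting beside the BMP branch, which signals through other SMADs.

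With 1 library in a group, the differences below were not checked against replicates and carry no p-value. The ± after an FPKM is the half-width of the deposited 95% interval, combined over the transcripts of a gene, and covers only the error of counting fragments and assigning them to transcripts. The widths of these intervals correspond to 62100000 fragments in the mock library, 68500000 fragments in the shKSRP-labelled library and 60400000 fragments in the BMP2 library. Khsrp, the gene of KSRP, was at 31.4 ± 0.85 FPKM in mock, 28.4 ± 0.64 in the shKSRP-labelled library and 27.1 ± 0.67 in the BMP2 library, so the hairpin's target was at 0.906 times mock. In mock 50.5% of that value stood on an assembled transcript, and the RefSeq transcript alone was at 15.5 FPKM in mock and 28.4 in the shKSRP-labelled library, which turns the direction. Directions given for that library rest on its label, which says KSRP knockdown. All 7 myoblast markers checked (Myod1, Myf5, Des, Vim, Cdh15, Itga7 and Ncam1) were above 1 FPKM in every library. Their sums of 6136, 4234 and 4086 FPKM in mock, the shKSRP-labelled library and the BMP2 library were mostly Vim (5665, 3822 and 3775). By a 2-fold rule on FPKM + 1, Myf5 was higher with the shKSRP label (7.75 to 48.4 FPKM), and Cdh15 (38.3 to 5.02) and Itga7 (90.1 to 35.9) were lower with BMP2. The defining endothelial markers Pecam1, Cdh5, Kdr and Tie1 summed to at most 0.109 FPKM in any library. Of the 3 blood markers found, Ptprc was at 0.00598 FPKM or listed at 0, while Cd14 was at 11.9, 4.61 and 10.5 and Hba-a1, at a shared locus, at 2.76, 2.25 and 0.921. Of 4 epithelial markers Epcam was listed at 0 throughout and Cdh1 and Krt8 were at most 0.317, while Krt14 stood at 114, 18.4 and 264 (locus shared with other genes). Of 4 neural markers Rbfox3 was listed at 0 and Gfap was at most 0.0613, while Map2 was at 0.116, 1.02 and 0.0851 and Tubb3, whose locus holds other genes too, at 98.0, 9.83 and 92.8. Of 5 osteoblast markers 2, 2 and 4 were at 1 FPKM or more in mock, the shKSRP-labelled library and the BMP2 library, with sums of 32.0, 18.9 and 76.7 FPKM and Ibsp listed at 0 in each. The lower sum with the shKSRP label is due to Bglap2, at a shared locus (23.2, 4.29 and 43.0). Runx2 (8.55, 13.6 and 12.8), Alpl (0.0518, 0.447 and 12.8) and Sp7 (0.187, 0.527 and 8.12) were above mock in both other libraries. Of 4 adipocyte markers 1, 1 and 2 were at 1 FPKM or more in these libraries. The part of these markers' cell types in the results below was not tested, and in bulk RNA fewer cells of a type and less RNA per cell cannot be told apart.

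Against mock, 5 of the 10 genes were higher in the shKSRP-labelled library by the 2-fold rule and none was lower, where 11.0% of all compared genes were higher and 12.9% lower (24.0% in either direction). The 5 were Tgfb2, Tgfb3, Inhba, Tgfbr2 and Smad3. In the BMP2 library 4 of the 10 were higher than in mock (Tgfb1, Tgfb3, Inhba and Fst) and none was lower, where 9.21% of all genes were higher and 8.95% lower (18.2% in either direction). The call is a log2 ratio of FPKM + 1 of at least 1 in size, which is a rule of size and no test. The median log2 ratio over the 10 genes was 1.00 in the shKSRP-labelled library and 0.72 in the BMP2 library, beside medians of −0.02 and 0.03 over all genes. Both comparisons share the mock library. The Inhba calls are lost, leaving 4 and 3 genes, when a further transcript in mock is counted with that gene. With each library scaled to the same sum of FPKM, 17.7% of all genes were higher and 8.24% lower in the shKSRP-labelled library, and 13.3% and 6.39% in the BMP2 library.

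**Figure D1:**
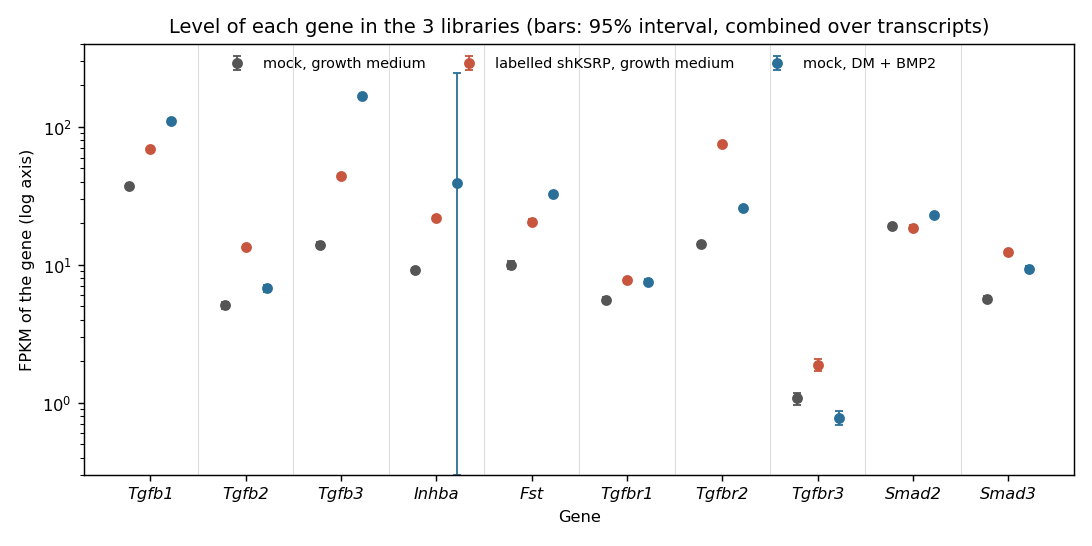
FPKM of each of the 10 genes (log axis) in the mock library (grey), the shKSRP-labelled library (red) and the BMP2 library (blue), 1 library each, with bars for the interval half-width, cut at the lower edge of the axis for Inhba. Tgfb1, Tgfb3, Inhba and Fst are ordered mock, shKSRP label, BMP2, while Tgfb2, Tgfbr2 and Smad3 are highest in the shKSRP-labelled library.

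Among the ligands, Tgfb3 differed most. Tgfb3 codes for TGF-beta 3 (RefSeq NM_009368, mm9 chromosome 12, 87397693 to 87419991, minus strand) and was at 13.9 ± 0.62 FPKM in mock, 44.4 ± 1.4 in the shKSRP-labelled library and 167 ± 3.7 in the BMP2 library. The 3 intervals did not overlap. The ratio to mock was 3.19 in the shKSRP-labelled library (interval 3.03 to 3.37) and 12 in the BMP2 library (11.4 to 12.6), where 99.2% of all genes had a lower log2 ratio. Part of this sum stood on short assembled pieces of the 3′ end, 86.8 FPKM on a transcript of 805 nt in the BMP2 library and 16.3 FPKM on one of 1329 nt in the shKSRP-labelled library. A short piece gets a high FPKM from few fragments, and with all fragments of the locus counted over the length of the RefSeq transcript (3385 nt) the ratios to mock were 2.50 and 7.33.

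Tgfb1, which codes for TGF-beta 1 (NM_011577, chromosome 7, 26472021 to 26490015, plus strand), was at 37.5 ± 1.1 FPKM in mock, 68.8 ± 1.4 in the shKSRP-labelled library and 111 ± 3.1 in the BMP2 library. It was the highest of the 10 genes in mock. The ratio to mock was 1.83 (1.77 to 1.90) with the shKSRP label, short of the 2-fold rule, and 2.96 (2.84 to 3.08) with BMP2. In the BMP2 library 52.3% of the sum stood on an assembled transcript of 860 nt that starts and ends inside the gene. Over a fixed gene length the BMP2 ratio was 2.05, and the RefSeq transcript alone, at 53.0 FPKM, stood at a log2 ratio of 0.49, below the 2-fold rule.

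Tgfb2, the gene of TGF-beta 2 (NM_009367, chromosome 1, 188447065 to 188529871, minus strand), followed another order, with 5.07 ± 0.32 FPKM in mock, 13.5 ± 0.45 in the shKSRP-labelled library and 6.77 ± 0.37 in the BMP2 library. As summed here it was the lowest of the 4 ligand genes in every library. The ratio to mock was 2.66 (2.47 to 2.86) with the shKSRP label and 1.33 (1.23 to 1.45) with BMP2. In the shKSRP-labelled library a further transcript of 3208 nt without strand, at 10.4 FPKM, lay over the 3′ end of Tgfb2 in a locus of its own and was not counted. With it Tgfb2 would be at 23.9 FPKM there, above Inhba at 21.9, and the ratio to mock would be 4.70. Of the summed FPKM of the 3 TGF-beta genes, Tgfb1 held 66.4% in mock, 54.3% in the shKSRP-labelled library and 39.0% in the BMP2 library. The share of Tgfb3 was 24.6%, 35.1% and 58.6%, so that Tgfb3 stood above Tgfb1 in the BMP2 library alone, and over a fixed gene length it still held 54.5% there.

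Promoter windows of GRCm38.p6 (RefSeq, 250 bases before the annotated start) are described for 6 of the 10 genes, Tgfb1, Tgfb2, Inhba, Tgfbr1 (2 starts), Tgfbr2 and Smad3. Those of Tgfb1, called higher only with BMP2, and of Tgfb2 and Tgfbr2, called only with the shKSRP label, are shown. Smad3 was also called only with the shKSRP label, and its window is described below but not shown. Capitals mark matches, on either strand, to the GC box GGGCGG, the SMAD box GTCTG, the TATA box TATAAA, the paired SMAD box GTCTAGAC, the AP-1 site TGANTCA and the GC-rich SMAD element GGCGCC.
Tgfb1, chr7:25686752-25687001, plus strand: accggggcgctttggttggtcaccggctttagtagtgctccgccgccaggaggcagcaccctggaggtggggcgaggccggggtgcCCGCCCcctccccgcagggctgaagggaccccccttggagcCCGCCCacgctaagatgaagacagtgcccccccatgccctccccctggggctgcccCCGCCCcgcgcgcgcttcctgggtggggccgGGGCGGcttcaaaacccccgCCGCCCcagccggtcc
Tgfb2, chr1:186705990-186706239, minus strand: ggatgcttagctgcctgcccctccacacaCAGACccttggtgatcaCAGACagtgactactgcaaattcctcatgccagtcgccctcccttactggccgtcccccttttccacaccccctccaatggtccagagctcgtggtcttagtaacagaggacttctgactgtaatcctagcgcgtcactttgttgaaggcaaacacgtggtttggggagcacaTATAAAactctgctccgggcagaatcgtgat
Tgfbr2, chr9:116175364-116175613, minus strand: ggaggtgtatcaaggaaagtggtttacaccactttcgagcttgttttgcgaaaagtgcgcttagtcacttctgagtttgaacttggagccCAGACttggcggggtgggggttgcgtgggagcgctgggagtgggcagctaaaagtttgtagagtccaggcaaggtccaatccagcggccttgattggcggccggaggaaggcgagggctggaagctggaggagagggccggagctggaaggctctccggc

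The Tgfb1 window is 75.2% G and C and holds 5 matches to the GC box, of which at least 1 is found in 32.7% of 32851 promoter windows of the same length. The other shares given here likewise count windows with at least 1 match. The Tgfb2 window is 53.6% G and C and holds a TATA box match (12.4% of windows) and 2 SMAD box matches (42.2% of windows). The Tgfbr2 window holds 1 SMAD box match at 58.4% G and C. No window of the 6 genes held the paired SMAD box (0.167% of windows) or the AP-1 site (6.75%), and the GC-rich element (9.59%) occurred in 1, at the first start of Tgfbr1. That window also held 2 GC boxes and the one at the second Tgfbr1 start 1 SMAD box, Inhba held 1 TATA box match, and Smad3 held 2 GC boxes. The Smad3 window is 69.2% G and C and holds no SMAD box or TATA box match, unlike that of Tgfb2. None of the matches overlapped another.

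Inhba codes for the beta A subunit of inhibin and activin A (NM_008380, chromosome 13, 16106308 to 16119044, plus strand). It was at 9.11 ± 0.39 FPKM in mock, 21.9 ± 0.59 in the shKSRP-labelled library and 39.0 in the BMP2 library. The RefSeq transcript was listed at 0 in all 3 libraries, and the sums stand on assembled transcripts of 5394 to 6614 nt that run past its 3′ end. In the BMP2 library each Inhba transcript had a lower bound of 0, and the upper bound of the RefSeq transcript was 196 FPKM, so the gene value there has no usable interval (± 208). The ratio to mock was 2.40 (2.29 to 2.53) with the shKSRP label and 4.28 with BMP2. In mock, however, a transcript of 6295 nt without strand, at 10.7 FPKM, lay over the Inhba 3′ exon in a locus of its own, with 95.6% of its length on exons given to Inhba. Counted with Inhba it takes mock to 19.8 FPKM and the ratios to 1.11 and 1.97, and neither comparison then passes the 2-fold rule.

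Fst codes for follistatin (NM_008046, chromosome 13, 115242470 to 115248938, minus strand), the secreted antagonist of activin. It was at 9.96 ± 0.64 FPKM in mock, 20.6 ± 0.84 in the shKSRP-labelled library and 32.8 ± 1.2 in the BMP2 library, with no overlap of the intervals. The ratio to mock was 2.06 (1.91 to 2.23) with the shKSRP label, where the log2 ratio of FPKM + 1 was 0.98 and just missed the call, and 3.29 (3.06 to 3.54) with BMP2. Its assembled transcripts, of 2294 to 2803 nt, were close in length to the annotated one (2337 nt), and over a fixed gene length the ratios were 1.94 and 3.09. The Fst level was 1.09, 0.94 and 0.84 times the Inhba level in mock, the shKSRP-labelled library and the BMP2 library, before the further transcript over Inhba in mock is counted. With it Inhba would be at 19.8 FPKM in mock, above Fst at 9.96, and the mock ratio would be the lowest of these. The BMP2 ratio uses the Inhba value that has no usable interval.

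AU-rich elements, the sequences that KSRP binds, were counted in the longest annotated 3′ UTR of each gene (GENCODE M21, GRCm38). The ATTTA pentamer occurred 21 times in the 4492 nt of Inhba and 10 times in the 1514 nt of Fst. Genes with a 3′ UTR of like length (80% to 125%) had medians of 7 (quartiles 4 and 11) and 2 (quartiles 1 and 4). The nonamer TTATTTATT occurred 3 times each in Inhba and Fst and 1 time in Tgfb2, and in none of the other 7 genes. It is present in 18.5%, 8.09% and 12.9% of genes with a 3′ UTR of like length, and in 8.27% of all 10899 genes with one. These sites are shown, 5′ to 3′, as the short stretches around each nonamer (capitals), because KSRP, the hairpin's target, is known to bind AU-rich elements.
Inhba site 1: ttatatttaTTATTTATTggaatcaat
Inhba site 2: gctatattaTTATTTATTtttatgcat
Inhba site 3: tagcagaagTTATTTATTtctattcca
Fst site 1: agtgtatgcTTATTTATTtggggggaa
Fst site 2: gagcagttgTTATTTATTgtgaggtct
Fst site 3: ctgtcatgtTTATTTATTggattctca
Tgfb2 site 1: aacagtgggTTATTTATTgtgtgttac

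Tgfb3 had no ATTTA in its 1035 nt, where genes of like length had a median of 1, and Tgfbr2 had 6 in 6085 nt, beside a median of 10. Tgfb1 had 1 in 135 nt, beside a median of 0. Smad2 had 17 in 6233 nt, beside a median of 11. Tgfb2 had 4 in 2656 nt and Tgfbr3 had 5 in 3069 nt, both at the median of genes of like length. Smad3 had 4 in 3495 nt, beside a median of 6, and Tgfbr1 had 5 in 4154 nt, beside 7. For Tgfbr2 and Smad2 the 3′ UTR searched is longer than the whole RefSeq transcripts measured here, of 4713 and 4788 nt and of 2512 nt. Part of it thus lies outside those transcripts, and the matches inside them were not counted apart. A match is a stretch of letters, and binding was not measured. Whether these elements bear on any ratio given here was not tested.

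Of the receptors, Tgfbr2 stood apart. It codes for the type II TGF-beta receptor (NM_009371 and NM_029575, chromosome 9, 115996813 to 116084481, minus strand) and was at 14.2 ± 0.44 FPKM in mock, 75.1 ± 1.1 in the shKSRP-labelled library and 25.7 ± 0.73 in the BMP2 library. The shKSRP-labelled library lay far above both others, and there Tgfbr2 was the highest of the 10 genes. The ratio to mock was 5.27 (5.09 to 5.45), the largest of the 10 in that comparison, and it was 5.29 over a fixed gene length. The ratio in the BMP2 library was 1.8 (1.73 to 1.88). The longer RefSeq isoform NM_009371, with 8 exons and 4788 nt, was at 17.0 FPKM in the shKSRP-labelled library (22.6% of the gene) and listed at 0 in both other libraries, where the isoform of 7 exons was at 14.2 in mock and 5.69 with BMP2. In the BMP2 library 20.0 FPKM, or 77.8% of the gene, stood on an assembled transcript of 5 exons and 3937 nt without the 5′ exons, so that the RefSeq transcripts alone give a log2 ratio to mock of −1.19 in place of 0.81.

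Tgfbr1 codes for the type I receptor, also known as ALK5 (NM_009370, chromosome 4, 47366177 to 47427796, plus strand). It was at 5.55 ± 0.27 FPKM in mock, 7.74 ± 0.34 in the shKSRP-labelled library and 7.53 ± 0.32 in the BMP2 library. The last 2 values overlapped, and the ratios to mock were 1.39 (1.31 to 1.49) and 1.36 (1.27 to 1.45). Its RefSeq transcript held only 0.634 FPKM in mock, where 88.6% of the gene stood on an assembled transcript of 8 exons that begins inside the gene. On RefSeq transcripts alone its log2 ratios to mock were 1.72 and 2.22 in place of 0.42 and 0.38, past the 2-fold rule in both comparisons. Per length, Tgfbr2 mRNA was 2.57 times Tgfbr1 mRNA in mock, 9.70 times in the shKSRP-labelled library and 3.41 times in the BMP2 library.

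Tgfbr3, the gene of betaglycan, a co-receptor that presents TGF-beta 2 to the type II receptor (NM_011578, chromosome 5, 107535589 to 107718614, minus strand), was the lowest of the 10 genes in every library. It was at 1.07 ± 0.11 FPKM in mock, 1.89 ± 0.19 in the shKSRP-labelled library and 0.778 ± 0.091 in the BMP2 library. It was the only one of the 10 with a value below mock in the BMP2 library that lay outside the intervals (ratio 0.725, 0.622 to 0.844). The higher value in the shKSRP-labelled library rests on an assembled 3′ piece of 3337 nt at 0.955 FPKM, and the RefSeq transcript alone was at 0.932.

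Smad2 and Smad3 code for the transducers that both receptor systems phosphorylate. Smad2 (NM_010754, chromosome 18, 76401579 to 76465385, plus strand) was at 19.1 ± 0.73 FPKM in mock, 18.6 ± 0.66 in the shKSRP-labelled library and 23.1 ± 0.79 in the BMP2 library. The first 2 values overlapped, and the ratio of the BMP2 library to mock was 1.21 (1.15 to 1.27). Smad2 is the only one of the 10 whose whole value stood on 1 RefSeq transcript in all 3 libraries, so the division between transcripts does not touch it. Smad3 (NM_016769, chromosome 9, 63494574 to 63605801, minus strand) was at 5.63 ± 0.26 FPKM in mock, 12.5 ± 0.37 in the shKSRP-labelled library and 9.33 ± 0.47 in the BMP2 library. The ratio with the shKSRP label was 2.21 (2.09 to 2.34), and once the trend with transcript length was removed the log2 ratio went from 1.02 to 0.69, below the 2-fold rule. The ratio with BMP2 was 1.66 (1.55 to 1.77), with 79.8% of the value on assembled transcripts, and over a fixed gene length it was 1.39. Smad2 mRNA was thus 3.40 times Smad3 mRNA in mock, 1.5 times in the shKSRP-labelled library and 2.48 times in the BMP2 library.

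**Figure D2:**
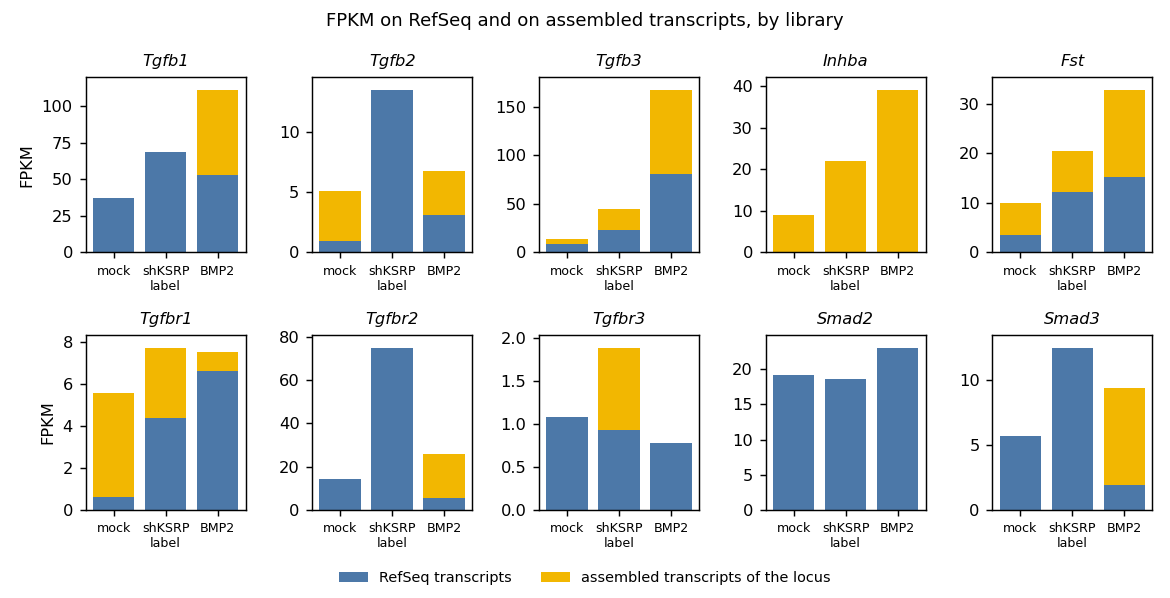
FPKM of each gene (vertical axis, its own scale per panel) on RefSeq transcripts (blue) and on transcripts assembled in that library (yellow), stacked, in the 3 libraries. Smad2 is all RefSeq, Inhba is all assembled, and Tgfb1, Tgfb2, Tgfb3, Fst, Tgfbr2 and Smad3 have from 51.9% to 79.8% of their value on assembled transcripts in the BMP2 library.

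The shKSRP-labelled library and the BMP2 library were also set against each other. Of the 10 genes 1 was higher in the shKSRP-labelled library, Tgfbr2 (ratio 2.93, 2.83 to 3.02), and 1 was lower, Tgfb3 (ratio 0.266, 0.256 to 0.276). Among all genes 6.07% were higher and 8.66% lower (14.7% in either direction). Tgfb2 was 1.99 times the BMP2 level (1.87 to 2.12) and Tgfbr3 2.42 times (2.08 to 2.83), and neither passed the rule on FPKM + 1. Tgfb2 passes it when the further transcript over its 3′ end is counted (3.52 times) and on RefSeq transcripts alone (log2 ratio 1.81). Tgfb1 (0.619), Inhba (0.561) and Fst (0.628) stood below the BMP2 level, again short of 2-fold. For Tgfb1 the ratio was 0.895 over a fixed gene length, and on RefSeq transcripts alone the direction turned (log2 ratio 0.37). The intervals of Inhba and Tgfbr1 overlapped between these libraries.

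The order of the levels differed between libraries. In mock it was Tgfb1, Smad2, Tgfbr2, Tgfb3, Fst, Inhba, Smad3, Tgfbr1, Tgfb2 and Tgfbr3, from 37.5 to 1.07 FPKM. Neighbours whose intervals overlapped there were Tgfbr2 with Tgfb3, Fst with Inhba, Smad3 with Tgfbr1 and Tgfbr1 with Tgfb2. With the further transcript over its 3′ exon counted, Inhba would be at 19.8 FPKM in mock, beside Smad2 at 19.1. In the shKSRP-labelled library Tgfbr2 led, ahead of Tgfb1, Tgfb3, Inhba and Fst, and only Inhba and Fst overlapped as neighbours. Tgfb2 would stand above Inhba there, at 23.9 FPKM, with the further transcript over its 3′ end counted. In the BMP2 library Tgfb3 led, ahead of Tgfb1, Inhba, Fst and Tgfbr2, and the neighbours of Inhba could not be separated from it because of its interval.

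**Figure D3:**
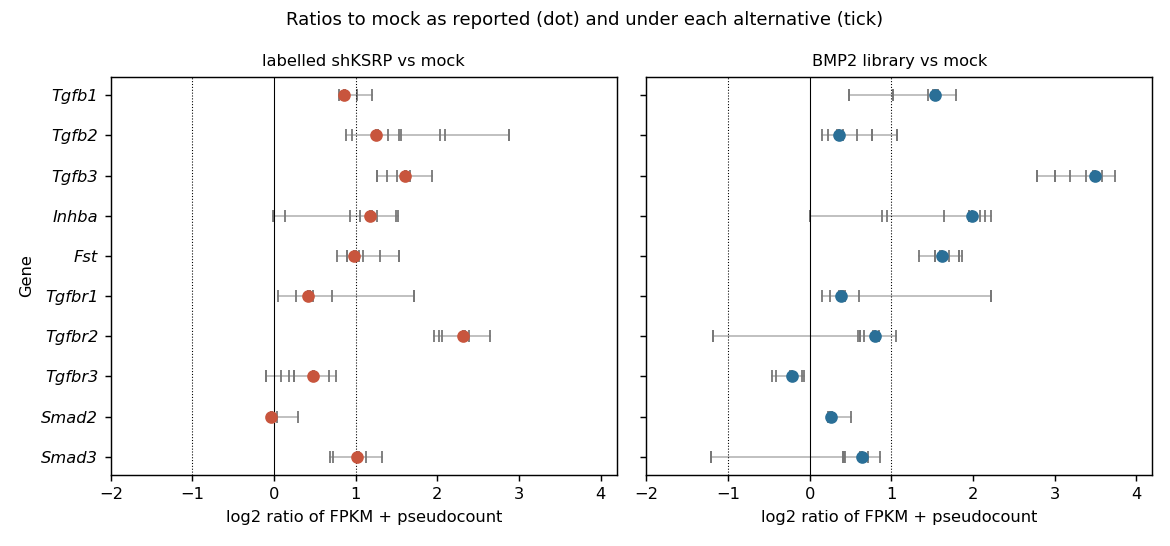
Log2 ratio to mock (horizontal axis) for each gene in the shKSRP-labelled library (left, red dots) and the BMP2 library (right, blue dots), with grey ticks for the same ratio under each of 11 other ways of computing it and dotted lines at 2-fold. Tgfb3 and Tgfbr2 (left) and Tgfb3 and Fst (right) lie past 2-fold under all 11, while Tgfbr2 and Smad3 on the right reach from −1.19 and −1.20 to 1.05 and 0.86. The 11 are not separate checks. Dropping the filter on low values changes no ratio, and the transcripts added from outside the loci lie over Inhba and Tgfb2 only.

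The ratio with the shKSRP label moved with transcript length over all genes, from a median log2 ratio of −0.55 over the 908 genes shorter than 1000 nt to 0.46 over the 1177 genes longer than 6000 nt. With BMP2 it went from −0.43 to 0.27. Of the 10 genes 5 have a RefSeq transcript over 4000 nt (Tgfb2, Tgfbr1, Tgfbr2, Tgfbr3 and Smad3) and 5 are shorter. With the trend taken out, 5 of the 10 were still called higher with the shKSRP label, but Tgfb1 and Fst took the places of Tgfb2 and Smad3. Tgfb3, Inhba and Tgfbr2 were called both ways, and with BMP2 the same 4 genes were called. The trend was taken over RefSeq length, which is 1529 nt for Inhba. Its log2 ratio with the shKSRP label thereby rose from 1.18 to 1.52. All Inhba FPKM stood on assembled transcripts of 5394 to 6614 nt, so its calls here rest on a length those transcripts do not have. The trend at their length was not taken out.

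The other genes of the pathway were taken from 6 lists with 102 different symbols, of which 76 were compared. With the shKSRP label 13 of the 76 were higher and 7 lower (median log2 ratio 0.17), beside 11.0% and 12.9% of all genes, and 3 of these 20 calls rest on a gene listed at 0 in 1 library. With BMP2 23 were higher and 4 lower (median 0.43), beside 9.21% and 8.95% of all genes, and 2 of these calls are on a gene listed at 0. The counts per list that follow have the same shares of all genes as their background. The genes named are the 4 with the largest log2 ratio in size per list, among those above 0 in every library. Of 11 further ligands of the family only 2 were compared, and Inhbb, which codes for the beta B subunit of activin B, was at 7.08 ± 0.32 FPKM in mock, 32.4 ± 0.66 with the shKSRP label and 18.4 ± 0.53 with BMP2, higher in both. Gdf11, a ligand close to myostatin, was at 9.09 ± 0.38, 18.0 ± 0.51 and 11.8 ± 0.43 and passed in neither.

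Of 13 compared genes of latency and activation, 3 were higher and 1 lower with the shKSRP label, and 5 higher and 1 lower with BMP2. Thbs1, the gene of thrombospondin 1, which can release TGF-beta from its latent complex, was higher in both (log2 ratios 2.86 and 3.17). Emilin1, whose product restrains the processing of the TGF-beta precursor, was at 0.530 ± 0.099 FPKM in mock, 37.9 ± 0.89 with the shKSRP label and 4.15 ± 0.30 with BMP2. Mmp2, a gelatinase, was at 25.9 ± 0.81, 34.1 ± 1.3 and 127 ± 1.7 and passed with BMP2. The gene of a matrix protein of the latent TGF-beta binding family, Ltbp2, at a shared locus, was at 99.5 ± 2.0, 13.3 ± 0.41 and 116 ± 1.7, but its log2 ratio of −2.82 with the shKSRP label was −1.69 over a fixed gene length and 0.30 on RefSeq transcripts alone.

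Among 6 compared receptors and co-receptors, 2 were higher with the shKSRP label and 3 with BMP2. The 2 were Acvr2a, an activin type II receptor (listed at 0 in mock, 6.58 ± 0.26 with the shKSRP label and 3.61 ± 0.21 with BMP2), and Eng, the co-receptor endoglin (1.59 ± 0.22 with the shKSRP label and listed at 0 in both others), so no fold is given for them. Acvr1, a type I receptor of BMPs also known as ALK2, was at 18.4 ± 0.77 in mock, 33.5 ± 0.93 and 53.1 ± 1.2, and passed with BMP2. Bambi, a decoy receptor, was at 0.377 ± 0.069, 0.0992 ± 0.034 and 2.24 ± 0.17 and passed with BMP2. The activin type I receptor gene Acvr1b (2.08 ± 0.21, 2.74 ± 0.19 and 3.30 ± 0.31) and the TGF-beta co-receptor gene Cd109 (12.8 ± 0.46, 11.05 ± 0.33 and 8.09 ± 0.30) passed in neither.

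The 23 compared intracellular genes were mostly near mock, with 1 higher and 1 lower with the shKSRP label and 4 higher and 2 lower with BMP2. Ski, a corepressor of SMAD2 and SMAD3, was higher in both, at 12.7 ± 0.52 FPKM in mock, 36.0 ± 0.77 with the shKSRP label and 36.7 ± 0.83 with BMP2. Of the inhibitory SMADs, Smad6 was at 13.2 ± 0.54, 18.1 ± 1.1 and 102 ± 2.5 and Smad7 at log2 ratios of 0.60 and 2.28, so each passed with BMP2 alone. For Smad6 with the shKSRP label the direction turned, from a log2 ratio of 0.43 to −0.31 over a fixed gene length. On RefSeq transcripts alone it was −1.44, past the 2-fold rule as lower. Nedd4l, a ubiquitin ligase for activated SMADs, was at 14.4 ± 0.90, 9.49 ± 0.51 and 6.64 ± 0.48 and passed as lower with BMP2 at −1.01, which became −0.37 over a fixed gene length. The remaining calls rest partly on values listed at 0: Smurf2, another such ligase, was at 10.02 ± 0.34 in mock, listed at 0 with the shKSRP label and at 27.98 ± 0.65 with BMP2. The corepressor gene Tgif2 was at 2.92 ± 0.31, 6.27 ± 0.39 and listed at 0. Smad4, the partner of SMAD2 and SMAD3, was at 27.3 ± 1.1, 25.1 ± 0.70 and 21.1 ± 0.68 and passed in neither, but on RefSeq transcripts alone its log2 ratios were 2.20 and 1.95. It was named with Smurf2, Tgif2, Acvr2a and Eng after the values were seen.

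Of 5 extracellular binding proteins, 2 were higher with the shKSRP label and 3 with BMP2, and none was lower. Fstl1, a follistatin-like glycoprotein gene, was at 162 ± 1.7 FPKM in mock, 223 ± 1.9 with the shKSRP label and 459 ± 2.9 with BMP2. The proteoglycan genes Fmod (log2 ratios 5.65 and 4.12) and Bgn (2.26 and 1.18), whose products bind TGF-beta, were higher in both, though on RefSeq transcripts alone the Bgn ratio with BMP2 was 0.57. Dcn, the gene of decorin, which also binds TGF-beta, was at 12.7 ± 0.94, 6.88 ± 0.47 and 21.6 ± 0.89 and passed in neither.

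Among the 30 compared genes known to be induced by TGF-beta in various cells, 4 were higher and 5 lower with the shKSRP label (median log2 ratio −0.09), near the 11.0% and 12.9% of all genes. With BMP2 8 were higher and 1 lower (median 0.55), beside 9.21% and 8.95% of all genes. Col1a1, a chain of type I collagen, was higher in both (log2 ratios 2.10 and 3.09), and Tgfbi, a matrix protein gene named for its induction by TGF-beta, was at 0.266 ± 0.080 in mock, 0.105 ± 0.048 with the shKSRP label and 5.99 ± 0.55 with BMP2. The gene of connective tissue growth factor, Ccn2, had a log2 ratio of −5.13 with the shKSRP label and 0.57 with BMP2, and Angptl4, an inhibitor of lipoprotein lipase, was lower in both (−1.30 and −2.39).

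**Figure D4:**
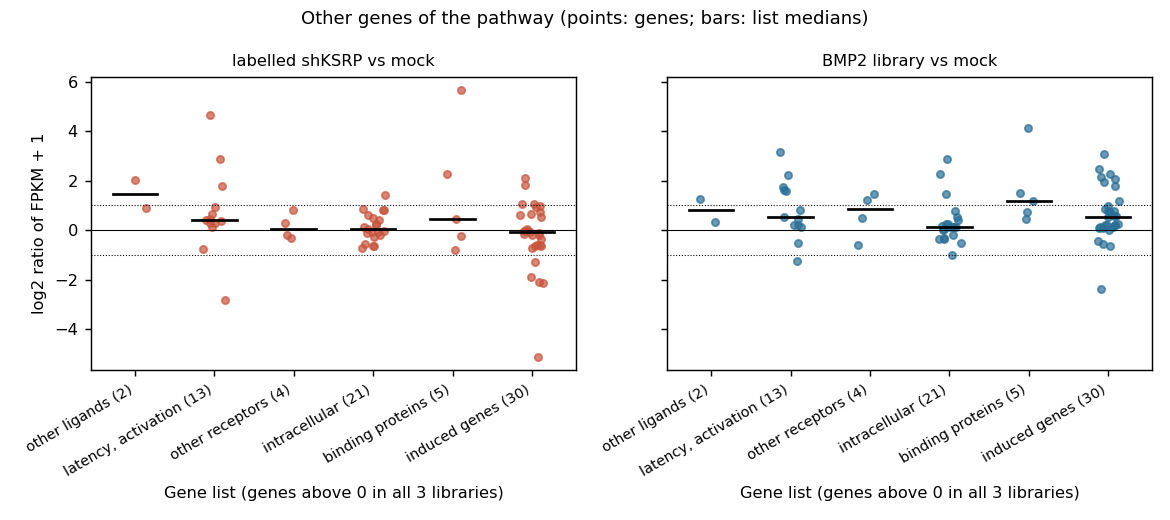
Log2 ratio of FPKM + 1 to mock (vertical axis) for the other genes of the pathway above 0 in all 3 libraries, 1 point per gene, by list (horizontal axis), in the shKSRP-labelled library (left) and the BMP2 library (right), with bars for list medians and dotted lines at 2-fold. The induced genes lie on both sides of 0 on the left, with Ccn2 lowest at −5.13, and Fmod is the highest point on both sides.

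Genes whose pattern over the 3 libraries was nearest to that of each called member were sought among 7037 genes, by the distance between centred log2 values of FPKM + 1. Nearest to Tgfb3 was Enc1, an actin-binding protein gene, at 9.13 ± 0.42 FPKM in mock, 33.5 ± 0.77 with the shKSRP label and 122 ± 1.8 with BMP2 (distance 0.11). No gene came within 0.1 of Tgfb3 and 1 came within 0.1 of Tgfbr2, namely Casp12, an inflammatory caspase gene (3.35 ± 0.29, 20.1 ± 0.92 and 6.60 ± 0.60). The next gene after Casp12 was Taf2 (distance 0.18). For Smad3 there were 44 genes within 0.1, led by Zfc3h1 and Steap3, and for Tgfb2 there were 18, led by Slc39a11 and Gtf3c4. For Fst there were 12, led by Plxnb2 and Neat1, for Tgfb1 11, led by Slc25a45 and the BMP receptor gene Acvr1, and for Inhba 2, Nsg1 and Plekha5. The distances rest on 3 libraries. Those for Inhba also use a mock value without the further transcript over its 3′ exon and a BMP2 value with no usable interval. For Tgfb2 they use 13.5 FPKM with the shKSRP label, where the further transcript over its 3′ end would give 23.9.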

How the data were processed

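RNA of C2C12 cells was sequenced in 3 libraries, 1 per group. Per the submitters' processing notes, Cufflinks 1.3.0, TopHat 1.4.1, Bowtie 0.12.7 and CASAVA 1.8 were used with the mm9 build. No settings are given there. The authors deposited FPKM with 95% bounds for 28702 RefSeq transcripts and for transcripts assembled in each library on its own, and a score per transcript, which was not used. Gene FPKM was the sum over RefSeq and assembled transcripts of a Cufflinks locus. Where a locus held several genes, an assembled transcript was given to the one sharing most exon bases. Of 28222 accessions, 27563 were named from the GRCm38.p6 RefSeq table, and coordinates are those of the files. Half-widths were combined as the root of summed squares. For genes of at least 10 FPKM their medians were 3.44%, 3.22% and 3.45% of the value. Fragments were estimated from interval widths of lone transcripts of at least 2000 nt and 5 FPKM. The labels name no molecular identifiers, so PCR copies count as fragments in these intervals. Ratios are of FPKM + 1, over genes that reached 1 FPKM in a library and have a transcript of at least 300 nt, and 762 of these 11463 genes were listed at 0 in a library. The computation of calls was checked on simulated data, which gives no error rate for these libraries. The members, lists and rules were chosen with earlier results of these data known. Named are all members, the 4 genes of each list with the largest ratio to mock in size, and the 2 genes nearest in pattern to each member called against mock. Of these, 1 gene is not reported here. Tgfb1i1 and Cd68 matched no symbol. Alternatives were 11 planned and 2 added after the data were seen. Python 3.11.15, pandas 2.3.3 and statsmodels 0.14.6 were used.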

Additional observations from a re-analysis of the deposited data

Results flagged for a closer look

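The shKSRP-labelled library held a transcript of 3208 nt without strand over the 3′ end of Tgfb2 at 10.4 FPKM, in a locus of its own. That transcript enters no gene value in the report. In mock no single-exon transcript without strand, in a locus of its own, had at least 50% of its length on Tgfb2 exons. Other kinds of transcript outside the locus were not searched. Mock did have signal over the same 3′ end, on an assembled transcript of 3515 nt at 4.11 FPKM that is counted in Tgfb2.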

How the results depend on the processing

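No paired analysis was possible because each group holds 1 library, and leaving out a replicate was not possible for the same reason. The number of genes called with the shKSRP label against mock was 5 as reported and 2 with a pseudocount of 5 and with a 3-fold rule (Tgfb3 and Tgfbr2 each time). Between the shKSRP-labelled library and the BMP2 library it was 2 as reported, 4 with RefSeq transcripts summed, 4 with 1 RefSeq transcript per gene, the most abundant, 7 with a 1.5-fold rule and 1 with a 3-fold rule. With BMP2 against mock it was 4 as reported and ranged from 3 to 6, but on RefSeq transcripts alone 2 of the 6, Tgfbr2 and Smad3, were lower. With the transcripts outside the loci added over a fixed gene length, chosen after seeing the data, the log2 ratio of Inhba with the shKSRP label turned from 1.18 to −0.016, and that alternative adds 10.7 FPKM to Inhba in mock. Scaling to an equal sum of FPKM moved the median log2 ratio of all genes from −0.02 to 0.27 with the shKSRP label and from 0.03 to 0.26 with BMP2, so the 7 and 5 genes then called sit on that shift. Of all genes, 1264 were higher and 1484 lower with the shKSRP label, and 605 and 909 with a pseudocount of 5, 2470 and 2771 with a 1.5-fold rule, 548 and 651 with a 3-fold rule, and 2025 and 944 with an equal sum. With BMP2 the counts of 1056 and 1026 were 540 and 628, 2229 and 2112, and 475 and 436 under the first 3 of these, and between the 2 other libraries 696 and 993 were 335 and 514, 1524 and 2013, and 327 and 468, and on RefSeq transcripts alone 1162 and 1069.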
